A study of Mus musculus with 9 samples.

Results

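The sirtuin genes Sirt1 to Sirt7, the NAD salvage gene Nampt and the FoxO genes Foxo1 and Foxo3 were followed across the 3 groups of a microarray study of senescence-accelerated mice. These 10 genes were listed by name and not picked by their own measured values, but earlier results of these data were known at the time. Each was read from the transcript with the highest mean. In the table of 22206 transcripts, 9 of the 10 genes had a transcript under their symbol, and each of the 9 had 1 only. Sirt7 was not analysed here. The study compared SAMP8 mice treated daily with 1 mg/kg TFQA over 37 days (SAMP8 TFQA) with untreated SAMP8 mice on water (SAMP8 water) and SAMR1 mice on water (SAMR1 water), with 3 arrays per group. TFQA is 3,4,5-tri-feruloylquinic acid, a synthetic polyphenol given by oral gavage. SAMP8 is a senescence-prone inbred strain with early memory decline, and SAMR1 is the related senescence-resistant strain, so that the strains differ by genetic background and not by a single allele. All mice were adult males of 6 months. No SAMR1 mice received TFQA, and the effect of the compound was therefore measured in SAMP8 alone.

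Sirtuins are enzymes that remove acetyl and other acyl groups from proteins and consume NAD+ in each reaction, so that their activity is coupled to the NAD+ supply of the cell. Nampt encodes the rate-limiting enzyme of the pathway that rebuilds NAD+ from nicotinamide, the by-product of the sirtuin reaction. FoxO proteins are transcription factors of stress resistance and metabolism. They are held outside the nucleus when insulin signaling through Akt is active, and they are deacetylated by sirtuins. The pathway is widely studied in aging, and in the brain it has been linked to synaptic plasticity and memory. The arrays measure mRNA and carry no information on NAD+ content, enzyme activity or the location of FoxO proteins.

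The start regions of Sirt1 and Nampt are shown because these genes encode a nuclear NAD+ consumer and the enzyme that supplies it, and because Sirt1 was the only listed gene with a difference at the study's threshold. Each stretch is the RefSeq sequence of GRCm38.p6 from 250 bases before to 50 bases after the annotated start of transcription, written 5′ to 3′ on the strand of the gene. Capitals mark the E-box CACGTG, which reads the same on both strands and is the site of basic helix-loop-helix factors such as the circadian clock pair.
Sirt1, chr10:63338986-63339285, minus strand: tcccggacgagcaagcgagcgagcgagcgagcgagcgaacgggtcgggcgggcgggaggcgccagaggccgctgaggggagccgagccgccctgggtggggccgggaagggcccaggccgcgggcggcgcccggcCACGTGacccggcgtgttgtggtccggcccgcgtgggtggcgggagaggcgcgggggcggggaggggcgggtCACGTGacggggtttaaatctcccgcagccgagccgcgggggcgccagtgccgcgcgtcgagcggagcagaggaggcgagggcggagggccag
Nampt, chr12:32820085-32820384, plus strand: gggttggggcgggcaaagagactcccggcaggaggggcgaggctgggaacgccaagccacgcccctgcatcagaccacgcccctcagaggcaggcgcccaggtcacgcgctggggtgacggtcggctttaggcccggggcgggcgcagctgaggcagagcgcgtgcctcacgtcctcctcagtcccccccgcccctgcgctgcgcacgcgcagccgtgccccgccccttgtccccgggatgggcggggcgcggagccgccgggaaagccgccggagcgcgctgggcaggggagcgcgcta
The Sirt1 stretch holds the E-box at 115 and at 43 bases before the start, whereas the Nampt stretch does not hold these letters. Of 32851 RefSeq stretches of this length, 7.15% hold at least 1 E-box and 0.594% hold 2 or more. Sirt1 was the only 1 of the 10 listed genes with a match. The FoxO element GTAAACA, searched on both strands as GTAAACA and TGTTTAC, is in 3.65% of all stretches and in 0 of the 10 genes. The cyclic AMP response element TGACGTCA is in 1.79% of all stretches and the TATA box, searched as TATAAA and TTTATA, in 13.6%, and neither is in any of the 10. The FoxO element and the TATA box do not overlap the E-box in sequence. The Sirt1 and Nampt stretches have a GC content of 79.0% and 76.3%. These matches are a description of letters, and no binding was measured.

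The column medians of the 9 arrays lay between 6.76 and 6.81 on the log2 scale, and correlations between arrays lay between 0.9876 and 0.9934. The tissue is hippocampus by the paper's methods, whereas the labels have brain as the source and neural stem cells as the cell type. The 7 measured neural stem cell markers read between 4.97 for Mki67 and 9.76 for Sox2 in the mean of all arrays. The 5 pan-neuronal markers read between 10.79 for Rbfox3 and 17.98 for Syt1. The 11 measured oligodendrocyte markers read between 8.53 for Mog and 17.33 for Mbp. Array signals do not rank genes against each other, and the name of the tissue was therefore not tested against marker levels. SAMP8 TFQA replicate 2 stood apart by its striatal markers, whose score (the mean log2 deviation of 6 genes from the mean of all arrays) was 3.77, against -1.04 to 0.91 in the other 8 arrays. In this mixed tissue, fewer cells of a type and less RNA per cell cannot be told apart. No source used here ties each array to a mouse of its own, so that the p-values below cover the variation among these arrays, be it biological or technical.

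Across the listed genes, SAMP8 TFQA vs. SAMP8 water gave 1 difference at the study's threshold, that of Sirt1, and no difference that passed adjustment. By this threshold a transcript needs a fold change above 1.1 and a p under 0.05 before adjustment, and the p was taken here from limma, fitted over all transcripts. At this threshold 7.12% of all transcripts differed, and the 1 of 9 measured genes is to be read beside that share. At a Benjamini-Hochberg adjusted p under 0.05 limma called 0 of the 9 genes and 0.00% of all transcripts, while 1580 transcripts had an unadjusted p under 0.05 and the linear model without moderated variances also called 0 of the 9. The smallest adjusted p among the 9 genes was 0.67. Sirt4, Foxo1 and Foxo3 had positive differences beside Sirt1, and Sirt2, Sirt3, Sirt5, Sirt6 and Nampt had negative ones. The median log2 fold change of the 9 genes was -0.07, beside 0.01 over all transcripts. The median size of the difference was 0.16, beside 0.15 over all transcripts. The split of signs depended on single arrays. Without SAMP8 TFQA replicate 2, the array with high striatal markers, 6 of the 9 differences were positive and their median was 0.02. With each array left out in turn, 3 to 6 of the 9 were positive, with medians of -0.09 to 0.02.

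**Figure D1:**
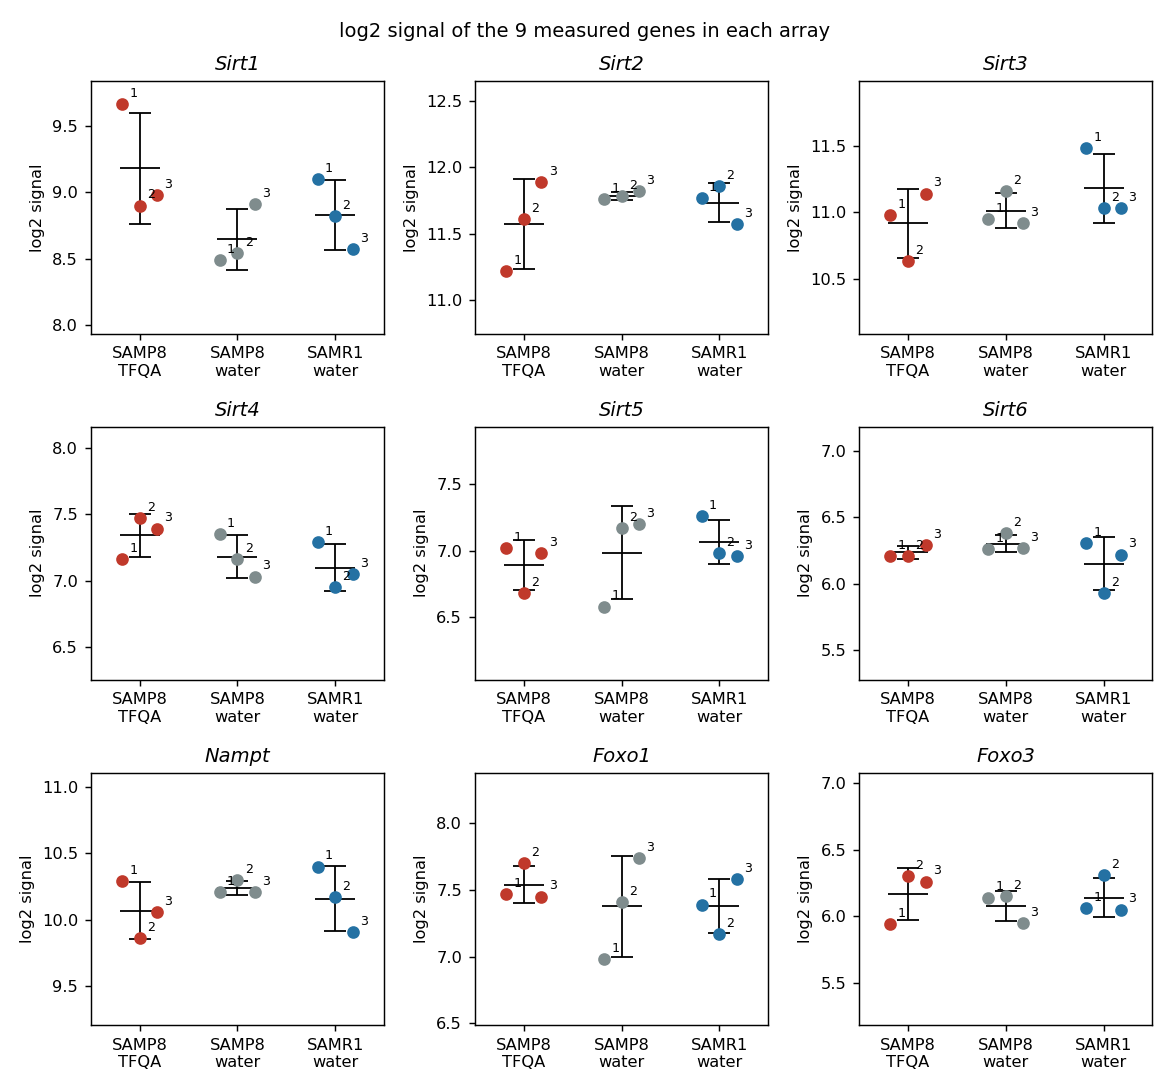
log2 signal (vertical axis, 1 panel per gene, all spanning the same number of units) in the arrays of SAMP8 TFQA, SAMP8 water and SAMR1 water. Points are arrays with their replicate number, the long bar is the mean and the error bar the SD (n = 3), and Sirt1 of SAMP8 TFQA replicate 1 at 9.66 is the highest of its 9 points.

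Sirt1, the nuclear deacetylase of histones and transcription factors that is the best known member of the family, lies on chromosome 10 from 63319005 to 63339035 of GRCm38.p6. It read 9.66, 8.90 and 8.98 in SAMP8 TFQA, 8.49, 8.54 and 8.91 in SAMP8 water and 9.10, 8.82 and 8.57 in SAMR1 water, in log2 units in the order of the replicates. SAMP8 TFQA replicate 1 was far above the other 8 arrays, and the remaining SAMP8 TFQA arrays lay around the highest SAMP8 water array, so that the groups overlapped. The mean was 9.18 ± 0.42 in SAMP8 TFQA and 8.65 ± 0.23 in SAMP8 water (SD, n = 3 each). The log2 fold change was 0.53 (standard error 0.23, 95% interval 0.04 to 1.02), a 1.45-fold difference, with an unadjusted p = 0.0357 and an adjusted p = 0.67 in limma. By p, Sirt1 was at rank 1180 of 22206 transcripts. Without SAMP8 TFQA replicate 1 the log2 fold change was 0.29 (interval -0.15 to 0.74), and the difference no longer passed the study's threshold (unadjusted p = 0.175 in limma). The threshold was also lost without SAMP8 water replicate 1 (0.46, unadjusted p = 0.107 in limma) and without SAMP8 water replicate 2 (0.48, unadjusted p = 0.0929 in limma). It was lost as well with array weights (0.47, unadjusted p = 0.052 in limma) and in the linear model without moderated variances (unadjusted p = 0.0833). The study's methods do not state whether variances were moderated. Its reported higher and lower genes in this comparison add up to 1580, the count of limma here, against 1473 without moderated variances. Limma gave 1580 with and without the fold change cutoff. The paper also gives smaller counts for genes above its fold change cutoff. Those conflict with 1580 as the count past both cutoffs. Between the strains, the total of the paper is close to the 1353 of limma here but not equal to it. A matching total does not show which test the study ran, and its own result for Sirt1 was not compared here. Without SAMP8 TFQA replicate 2, the array with high striatal markers, the log2 fold change was 0.67.

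**Figure D2:**
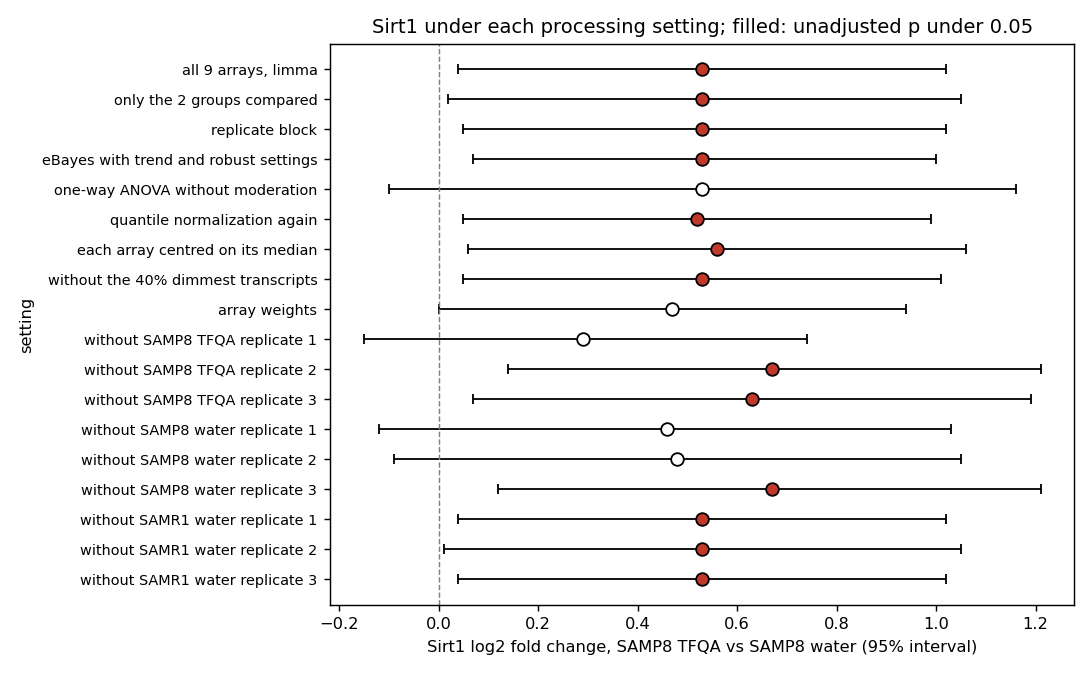
log2 fold change of Sirt1 for SAMP8 TFQA vs. SAMP8 water (horizontal axis, bars are 95% intervals) under each setting (vertical axis). Filled points have an unadjusted p under 0.05. All 18 values are positive, between 0.29 and 0.67, and 5 of them are open points.

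Of the marker lists scored, 3 did not overlap between SAMP8 TFQA and SAMP8 water, and all others overlapped. The score of hippocampal pyramidal and granule neuron markers was -0.53 to 0.03 in SAMP8 TFQA and 0.13 to 0.47 in SAMP8 water, with 6 of 6 measured genes lower. The score of neural stem cell markers was 0.07 to 0.24 in SAMP8 TFQA and -0.17 to -0.07 in SAMP8 water, with 5 of 7 genes higher. That of endothelial markers was 0.13 to 0.33 in SAMP8 TFQA and -0.02 to 0.12 in SAMP8 water, with 4 of 5 genes higher. SAMP8 TFQA replicate 1, the array with the highest Sirt1, was nearest to SAMP8 water in the hippocampal neuron score (0.03) and the endothelial score (0.13). It was farthest from SAMP8 water in the neural stem cell score (0.24). The lowest hippocampal neuron score, -0.53, was in SAMP8 TFQA replicate 2, the array with high striatal markers. Limma called 0 genes of the 3 lists at an adjusted p under 0.05. Their part in the Sirt1 difference was not tested.

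The mitochondrial sirtuins and the cytosolic Sirt2 did not differ between SAMP8 TFQA and SAMP8 water at either threshold. Sirt2, a deacetylase of tubulin that is abundant in oligodendrocytes and myelin, read 11.22, 11.61 and 11.89 in SAMP8 TFQA and 11.76, 11.78 and 11.82 in SAMP8 water. The SAMP8 water arrays lay close together, with an SD of 0.03, and the SAMP8 TFQA arrays held both the lowest and the highest value of all 9 arrays. The log2 fold change was -0.21 (standard error 0.18, 95% interval -0.61 to 0.18, adjusted p = 0.828 in limma). The score of 11 oligodendrocyte markers was -0.01 in SAMP8 TFQA replicate 1, where Sirt2 was lowest, and -0.42 in SAMP8 TFQA replicate 3, where Sirt2 was highest. Its own highest value, 0.82, was in SAMR1 water replicate 2, where Sirt2 read 11.86.

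Sirt3, the main deacetylase of mitochondrial proteins, read 10.98, 10.63 and 11.14 in SAMP8 TFQA and 10.95, 11.16 and 10.92 in SAMP8 water. The values of both groups were interleaved, and the log2 fold change was -0.09 (95% interval -0.50 to 0.31). Sirt4, a mitochondrial sirtuin that restrains glutamate dehydrogenase, read 7.16, 7.47 and 7.39 in SAMP8 TFQA and 7.35, 7.16 and 7.03 in SAMP8 water. The groups overlapped, since SAMP8 TFQA replicate 1 was at the level of SAMP8 water replicate 2, and the log2 fold change was 0.16 (95% interval -0.20 to 0.52). Sirt5, which removes succinyl and malonyl groups in mitochondria, read 7.02, 6.68 and 6.98 in SAMP8 TFQA and 6.58, 7.17 and 7.20 in SAMP8 water. SAMP8 water replicate 1 was the lowest of all 9 arrays and the remaining SAMP8 water arrays were above every SAMP8 TFQA array, with a log2 fold change of -0.09 (95% interval -0.52 to 0.34). Sirt6, a chromatin-bound sirtuin of DNA repair and telomere maintenance, was 6.21 to 6.29 in SAMP8 TFQA and 6.26 to 6.38 in SAMP8 water, a log2 fold change of -0.07 (95% interval -0.40 to 0.26).

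Nampt, on chromosome 12 from 32820335 to 32853369, read 10.29, 9.86 and 10.06 in SAMP8 TFQA and 10.21, 10.30 and 10.21 in SAMP8 water. SAMP8 TFQA replicate 2 was the lowest of all arrays, and SAMP8 TFQA replicate 1 lay within the range of SAMP8 water. The log2 fold change was -0.17 (standard error 0.17, 95% interval -0.55 to 0.21, adjusted p = 0.858 in limma). Foxo1, a FoxO factor with known roles in insulin response and in blood vessels, read 7.47, 7.70 and 7.45 in SAMP8 TFQA and 6.98, 7.41 and 7.74 in SAMP8 water. The SAMP8 water arrays enclosed all SAMP8 TFQA arrays, and the log2 fold change was 0.16 (95% interval -0.28 to 0.60). Foxo3, the FoxO factor associated with human longevity and with the upkeep of neural stem cells, read 5.94, 6.30 and 6.26 in SAMP8 TFQA and 6.14, 6.15 and 5.95 in SAMP8 water. SAMP8 TFQA replicate 1 was the lowest of all arrays and its group mates were above every SAMP8 water array, with a log2 fold change of 0.09 (95% interval -0.26 to 0.44). The intervals of these genes hold differences in both directions, and a p above the threshold does not show that the groups were equal.

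**Figure D3:**
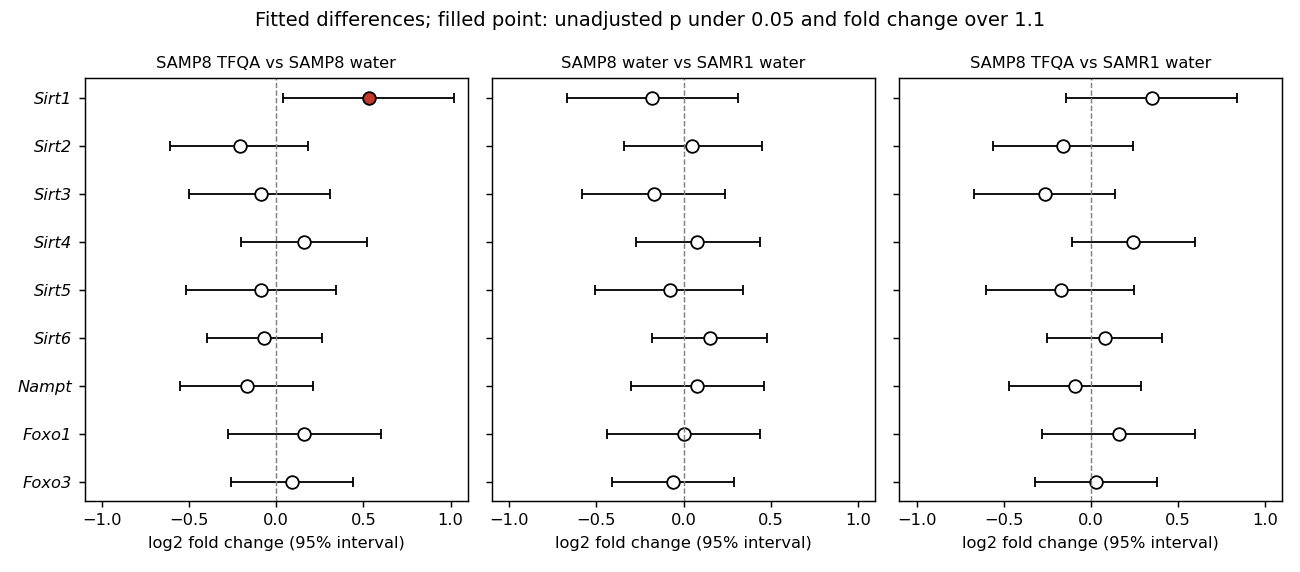
log2 fold change (horizontal axis, bars are 95% intervals of limma) of the 9 measured genes (vertical axis) in each comparison. The filled point marks the 1 gene at the study's threshold, Sirt1 in SAMP8 TFQA vs. SAMP8 water at 0.53, and every other interval includes 0.

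SAMP8 water vs. SAMR1 water asks whether the senescence-prone strain differs in these genes without treatment. In this comparison 0 of the 9 genes passed the study's threshold, which 6.09% of all transcripts passed, and 0 passed at an adjusted p under 0.05, which 0.509% passed (0 of the 9 also by the linear model without moderated variances). The smallest adjusted p was 0.967. The median size of the 9 differences was 0.08, beside 0.14 over all transcripts, and 4 were positive and 5 negative. The groups overlapped in all 9 genes, whereas they did not overlap in 11.8% of all transcripts.

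The difference between the strains in Sirt1 was -0.18 on the log2 scale (standard error 0.23, 95% interval -0.67 to 0.31), from a mean of 8.65 ± 0.23 in SAMP8 water and 8.83 ± 0.27 in SAMR1 water (SD, n = 3 each). The highest SAMR1 water array, at 9.10, was above all SAMP8 water arrays, and the lowest, at 8.57, was among them. Sirt3 read 10.95, 11.16 and 10.92 in SAMP8 water and 11.48, 11.03 and 11.03 in SAMR1 water, so that 1 SAMR1 water array stood above the rest, and the log2 fold change was -0.17 (95% interval -0.58 to 0.24). Sirt6 read 6.26, 6.38 and 6.27 in SAMP8 water and 6.31, 5.93 and 6.22 in SAMR1 water, with a log2 fold change of 0.15 (95% interval -0.18 to 0.48). Here SAMR1 water replicate 2 was the lowest of all 9 arrays.

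Nampt was 10.21 to 10.30 in SAMP8 water and 9.91 to 10.40 in SAMR1 water, and the SAMR1 water range enclosed that of SAMP8 water (log2 fold change 0.08, 95% interval -0.30 to 0.46). Foxo1 had a mean of 7.38 ± 0.38 in SAMP8 water and 7.38 ± 0.21 in SAMR1 water (SD, n = 3 each), with a log2 fold change of 0.00 (95% interval -0.44 to 0.44). This was the smallest of the 9 differences between the strains. Foxo3 had a log2 fold change of -0.06 (95% interval -0.41 to 0.29), Sirt2 of 0.05 (95% interval -0.34 to 0.45), Sirt4 of 0.08 (95% interval -0.27 to 0.44) and Sirt5 of -0.08 (95% interval -0.51 to 0.34). The score of meningeal fibroblast markers was 0.18 to 0.67 in SAMP8 water and -0.71 to -0.34 in SAMR1 water, with 8 of 8 genes higher in SAMP8 water, and that of endothelial markers was -0.02 to 0.12 in SAMP8 water and -0.45 to -0.21 in SAMR1 water, with 5 of 5 higher. The astrocyte score was 0.03 to 0.28 in SAMP8 water and -0.34 to 0.02 in SAMR1 water, with 6 of 6 genes higher, and the score of hippocampal neuron markers was 0.13 to 0.47 in SAMP8 water and -0.23 to 0.03 in SAMR1 water, with 4 of 6 higher and 1 gene at an adjusted p under 0.05 in limma. Among the hippocampal neuron markers, Spink8 had the largest difference, 1.87 on the log2 scale. The others of that list lay between -0.18 for Neurod6 and 0.52 for C1ql2. The part of these marker lists in the values of the sirtuin and FoxO genes was not tested.

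SAMP8 TFQA vs. SAMR1 water sets the treated senescence-prone mice beside the resistant strain. Of the 9 genes, 0 passed the study's threshold, which 8.06% of all transcripts passed, and 0 passed at an adjusted p under 0.05, which 0.576% passed (0 of the 9 also by the linear model without moderated variances). The smallest adjusted p was 0.734, for Sirt1, whose mean was 9.18 ± 0.42 in SAMP8 TFQA and 8.83 ± 0.27 in SAMR1 water (SD, n = 3 each), a log2 fold change of 0.35 (standard error 0.23, 95% interval -0.14 to 0.84). Sirt3 had the largest negative difference, -0.26 (95% interval -0.67 to 0.14), from 10.92 ± 0.26 in SAMP8 TFQA and 11.18 ± 0.26 in SAMR1 water. Sirt4 had a log2 fold change of 0.24 (95% interval -0.11 to 0.60), with 7.16 to 7.47 in SAMP8 TFQA and 6.95 to 7.29 in SAMR1 water. The remaining differences lay between -0.17 for Sirt5 and 0.16 for Foxo1. The groups overlapped in all 9 genes, beside 12.3% of all transcripts without overlap. The endothelial score was 0.13 to 0.33 in SAMP8 TFQA and -0.45 to -0.21 in SAMR1 water, with 5 of 5 genes higher, and the meningeal score -0.26 to 0.43 in SAMP8 TFQA and -0.71 to -0.34 in SAMR1 water, with 7 of 8 higher. Limma called 1 gene of each of these lists at an adjusted p under 0.05. The neural stem cell score was 0.07 to 0.24 in SAMP8 TFQA and -0.12 to 0.01 in SAMR1 water, with 5 of 7 genes higher. The part of these lists in the differences was not tested. All 3 comparisons share arrays in pairs, so that they are not independent of each other.

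The order of the group means differed from gene to gene. SAMP8 TFQA had the highest mean in Sirt1, Sirt4, Foxo1 and Foxo3, SAMP8 water in Sirt2, Sirt6 and Nampt, and SAMR1 water in Sirt3 and Sirt5. In Sirt1 the order was SAMP8 TFQA, SAMR1 water and SAMP8 water, and only the ends of this order differed at the study's threshold. In the other 8 genes no neighbouring or outer pair of groups differed at that threshold. The gap between the highest and the lowest group mean was 0.53 in Sirt1 and 0.09 to 0.26 in the others, while the SD within groups, pooled over the groups, was 0.31 in Sirt1 and 0.12 to 0.26 in the others.

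Sirt1 had the widest range over the 9 arrays, 1.17 log2 units, and its SD within groups was higher than that of 75.9% of all transcripts. Foxo3 had the narrowest range, 0.37, and Sirt6 the smallest SD within groups, 0.12, higher than that of 7.93% of transcripts. Single arrays carried several of the extreme values. SAMP8 TFQA replicate 1 was the highest array for Sirt1 and the lowest for Sirt2 and Foxo3. SAMR1 water replicate 1 was the highest array for Sirt3, Sirt5 and Nampt, at 11.48, 7.26 and 10.40. SAMP8 TFQA replicate 2 was the lowest for Sirt3 and Nampt, at 10.63 and 9.86. SAMP8 water replicate 1 was the lowest for Sirt1, Sirt5 and Foxo1, at 8.49, 6.58 and 6.98. SAMR1 water replicate 2 was the lowest for Sirt4 and Sirt6, at 6.95 and 5.93.

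**Figure D4:**
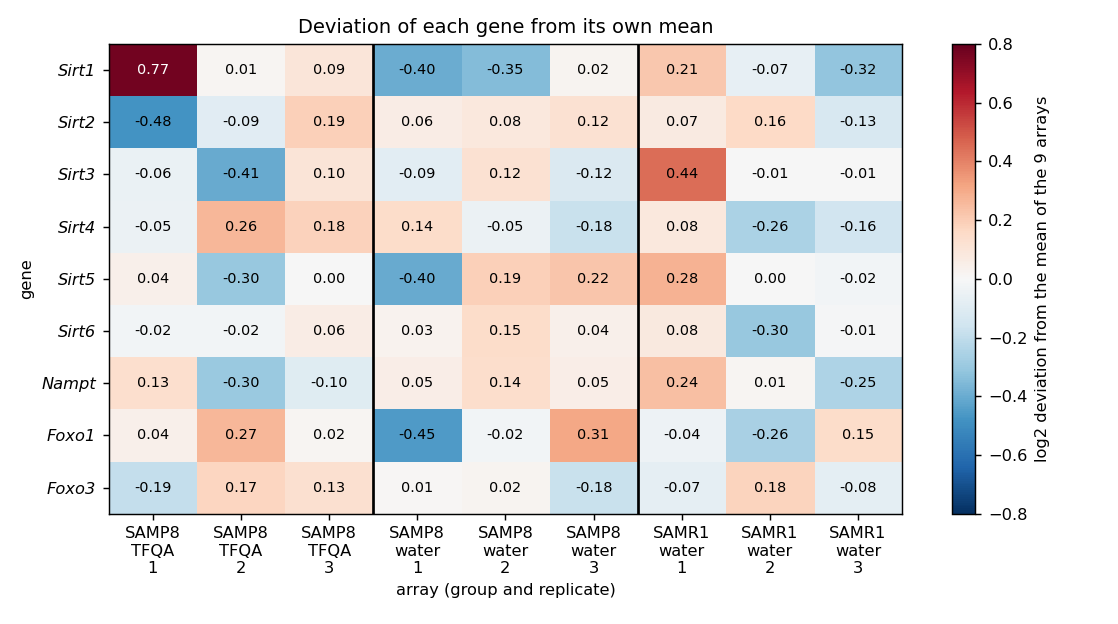
Deviation of each gene (rows) from its own mean over the 9 arrays, in log2 units, in each array (columns, by group and replicate). Red is above and blue below the gene's mean, and SAMP8 TFQA replicate 1 combines the largest positive value, 0.77 for Sirt1, with the largest negative value, -0.48 for Sirt2.

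The genes whose pattern over the 9 arrays was most like that of each member were taken from 19504 other named genes by Pearson's r, as a description. They are the highest values among that many genes, and the points share their arrays and normalization. For Sirt1 they were Prss23, a serine protease gene (r = 0.959, Spearman's rho 0.933, and r = 0.902 without the 2 arrays farthest from the median of Sirt1), and Atrx, a chromatin remodeler gene (r = 0.957, rho 0.992, and 0.865 without 2 arrays). For Sirt2 they were Prr14 (r = 0.968, rho 0.833, and 0.875 without 2 arrays) and Lonp1, a mitochondrial protease gene (r = 0.966, rho 0.833, and 0.756 without 2 arrays). For Nampt they were Fam136a (r = 0.946, rho 0.812) and Hapln1, a link protein gene of the perineuronal matrix (r = 0.931, rho 0.828). For Foxo1 they were Acta1 and Prkd2 (r = 0.947 and 0.926, rho 0.917 and 0.728), and for Foxo3 Sohlh2 and Sec14l5 (r = 0.917 and 0.914, rho 0.933 and 0.900). For the remaining sirtuins they were Rhobtb1 and Gsta4 for Sirt3, Dennd6b and Cdk2ap1 for Sirt4, Trp53bp2 and Ripk4 for Sirt5, and Kdsr and Cdh5 for Sirt6, with r between 0.924 and 0.949. That of Cdh5 with Sirt6 was 0.392 without the 2 farthest arrays.

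Of 29 listed other genes of NAD metabolism, 26 were measured. In SAMP8 TFQA vs. SAMP8 water 0 were higher and 3 lower at the study's threshold, which 7.12% of all transcripts passed, and 0 passed at an adjusted p under 0.05. The list had a median log2 fold change of 0.03, beside 0.01 over all transcripts. Of the 3 genes, Naprt belongs to the route from nicotinic acid, and Afmid and Tdo2 belong to the route from tryptophan. Naprt, the first enzyme of its route, read 5.39, 5.69 and 5.50 in SAMP8 TFQA and 5.89, 6.10 and 6.10 in SAMP8 water, without overlap (log2 fold change -0.50, standard error 0.20, adjusted p = 0.638 in limma). Afmid, the formamidase of the tryptophan route, read 4.68, 5.54 and 5.63 in SAMP8 TFQA and 6.19, 5.81 and 6.04 in SAMP8 water (-0.73, standard error 0.23, adjusted p = 0.561 in limma). Tdo2, which opens that route, read 5.80, 4.32 and 5.41 in SAMP8 TFQA and 6.29, 5.78 and 5.80 in SAMP8 water (-0.78, standard error 0.32, adjusted p = 0.654 in limma), and here SAMP8 TFQA replicate 2 was far below the rest and the groups overlapped. All 3 are among the 40% dimmest transcripts, and without these the count was 0.

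Nmnat2, the neuronal enzyme that turns the product of Nampt into NAD+ and protects axons, was 12.38 to 12.63 in SAMP8 TFQA, 12.27 to 12.39 in SAMP8 water and 12.24 to 12.52 in SAMR1 water. The difference was 0.14 ± 0.15 log2 units for SAMP8 TFQA vs. SAMP8 water and -0.06 ± 0.15 for SAMP8 water vs. SAMR1 water (± standard error). Between the strains 0 of the 26 genes passed the study's threshold, beside 6.09% of all transcripts. Of the 26 genes, 1 was lower in SAMP8 TFQA vs. SAMR1 water, where 8.06% of all transcripts passed, which was Afmid at -0.56 (standard error 0.23). In both, 0 passed at an adjusted p under 0.05.

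Of 46 listed other FoxO factors, upstream kinases and FoxO target genes, 44 were measured. In SAMP8 TFQA vs. SAMP8 water 2 were higher and 1 lower at the study's threshold, 3 of 44 beside 7.12% of all transcripts, a share near that background. At an adjusted p under 0.05 limma called 0, with a median log2 fold change of 0.08 beside 0.01 over all transcripts. The 3 genes, Cdkn1a, Gadd45a and Gadd45b, are target genes that act in cell cycle arrest and stress response. Gadd45a read 8.70, 8.59 and 8.86 in SAMP8 TFQA and 8.51, 8.14 and 8.37 in SAMP8 water (log2 fold change 0.38, standard error 0.16, adjusted p = 0.67 in limma). Its paralog Gadd45b had a difference of the opposite sign, with 6.80, 7.80 and 7.71 in SAMP8 TFQA and 8.00, 8.11 and 8.06 in SAMP8 water (-0.62, standard error 0.23, adjusted p = 0.608 in limma). Cdkn1a, the cell cycle inhibitor gene, read 6.22, 7.84 and 7.94 in SAMP8 TFQA and 5.50, 5.96 and 6.07 in SAMP8 water. Its difference was 1.49 log2 units (standard error 0.43, adjusted p = 0.561 in limma). The groups did not overlap in these 3 genes, and in 8 of the 44 in all, beside 11.8% of all transcripts. The same count was 9 of the 44 between the strains, beside 11.8% of all transcripts. It was 2 of the 44 in SAMP8 TFQA vs. SAMR1 water, beside 12.3%. Gadd45b of SAMP8 TFQA replicate 1, at 6.80, was far below its group mates, and in Cdkn1a the same array, at 6.22, was the lowest of its group.

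The other FoxO genes did not pass either threshold in any comparison of the main fit. Foxo4 was 4.48 to 4.89 in SAMP8 TFQA and 4.93 to 5.39 in SAMP8 water, without overlap, and 4.65 to 5.16 in SAMR1 water (log2 fold change -0.36 with a standard error of 0.19 for the SAMP8 groups). Foxo6, the FoxO factor most restricted to brain, was 5.68 to 5.91 in SAMP8 TFQA, 5.12 to 6.02 in SAMP8 water and 5.66 to 6.22 in SAMR1 water. Between the strains, 1 of the 44 genes was higher and 1 lower at the study's threshold, beside 6.09% of all transcripts. Sgk1, a kinase that phosphorylates FoxO factors alongside Akt and is induced by glucocorticoids, read 11.56, 11.56 and 11.80 in SAMP8 water and 12.22, 12.17 and 12.33 in SAMR1 water, without overlap (log2 fold change -0.60, standard error 0.17, adjusted p = 0.345 in limma). Cat, which encodes the peroxide-degrading enzyme catalase, read 10.61, 10.62 and 10.55 in SAMP8 water and 10.13, 10.46 and 10.02 in SAMR1 water (0.39, standard error 0.17, adjusted p = 0.79 in limma). In SAMP8 TFQA vs. SAMR1 water, where 8.06% of all transcripts passed, 2 of the 44 were higher, Txnip, an inhibitor of thioredoxin, at 0.57 (standard error 0.19) and Pik3r1, the regulatory subunit of PI3-kinase, at 0.57 (standard error 0.25), and 0 were lower. Pik3r1 read 13.67, 13.20 and 12.49 in SAMP8 TFQA and 12.71, 12.58 and 12.35 in SAMR1 water, with overlap. At an adjusted p under 0.05, limma called 0 of the 44 in each comparison.

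Of 41 listed partners and substrates of sirtuins, 33 were measured. The SAMP8 TFQA and SAMP8 water groups differed at the study's threshold in 2 of the 33, beside 7.12% of all transcripts, both lower in SAMP8 TFQA, with a median log2 fold change of -0.04. Nrf1, a transcription factor of nuclear genes for mitochondria, read 7.60, 8.23 and 7.81 in SAMP8 TFQA and 8.74, 8.49 and 8.27 in SAMP8 water (log2 fold change -0.62, standard error 0.20, adjusted p = 0.564 in limma). Acss2, an acetyl-CoA synthetase of cytosol and nucleus, read 9.77, 9.70 and 9.60 in SAMP8 TFQA and 10.14, 10.05 and 9.92 in SAMP8 water (-0.35, standard error 0.16, adjusted p = 0.689 in limma). Both were without overlap. Ppargc1a, the coactivator of mitochondrial biogenesis that Sirt1 deacetylates, read 11.86, 11.59 and 11.55 in SAMP8 TFQA, was 11.86 to 12.09 in SAMP8 water and averaged 12.07 ± 0.10 in SAMR1 water (SD, n = 3). Its SAMP8 TFQA arrays were all below the SAMR1 water arrays, and 1 of them equalled the lowest SAMP8 water array. Its log2 fold change was -0.41 (standard error 0.15, adjusted p = 0.527 in limma) in SAMP8 TFQA vs. SAMR1 water, at the study's threshold, and -0.32 (standard error 0.15, unadjusted p = 0.0614 in limma) in SAMP8 TFQA vs. SAMP8 water, short of it. Hic1, a transcriptional repressor of Sirt1, also passed the study's threshold in SAMP8 TFQA vs. SAMR1 water, at -0.35 (standard error 0.15), and these 2 were the only ones of the 33 to do so, beside 8.06% of all transcripts. Between the strains, where 6.09% of all transcripts passed, the only one was Polr1a, the largest subunit of RNA polymerase I, which read 8.69, 8.30 and 8.69 in SAMP8 water and 8.23, 7.89 and 8.09 in SAMR1 water (0.49, standard error 0.17, adjusted p = 0.556 in limma). At an adjusted p under 0.05, limma called 0 of the 33 in each comparison. The groups did not overlap in 5 of the 33 in SAMP8 TFQA vs. SAMP8 water and in 4 between the strains, each beside 11.8% of all transcripts. In SAMP8 TFQA vs. SAMR1 water they did not overlap in 11, beside 12.3%.

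**Figure D5:**
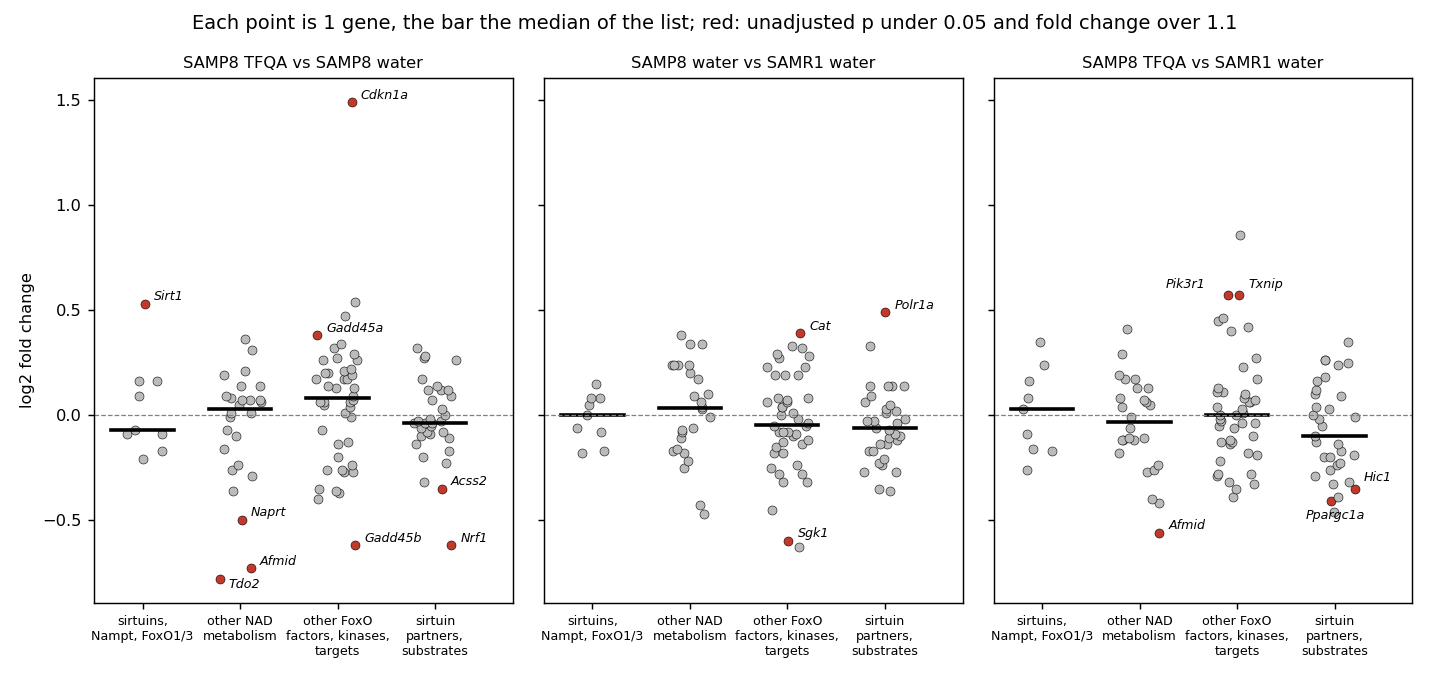
log2 fold change (vertical axis) of each gene (points) in the listed sirtuin, Nampt and FoxO genes and in the 3 further lists (horizontal axis), in 1 panel per comparison. The thick bar is the median of a list, which lies between -0.10 and 0.08 in all panels, and red points with names passed the study's threshold.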

How the data were processed

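Each of 9 RNA samples was measured on a Clariom S Mouse array. The authors processed the arrays in the Transcriptome Analysis Console 4.0.2 by SST-RMA, per the paper's methods, while the labels name RMA and mm10. The deposited table holds log2 signals, 1 per transcript and array, which the authors had already corrected for background, normalized across arrays and summarized over probes. They do not rank genes against each other, and the number of arrays limits their precision. Of 22206 transcripts, 19572 carry 1 gene symbol of the platform annotation, 0 several and 2634 none. Positions and sequences are those of RefSeq for GRCm38.p6.

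In R 4.3.3, limma 3.58.1 (lmFit, eBayes) fitted 1 coefficient per group over all 9 arrays and all transcripts without a filter, with Benjamini-Hochberg adjustment over all transcripts. The method was tested on simulated data. The members and lists were chosen with earlier results of these data known. Named are all members, the other FoxO genes, Nmnat2, Ppargc1a and 1 further gene that was not analysed here, up to 4 genes of each list and comparison past the study's threshold, and the 2 genes most like each member. The alternatives were fitting only the 2 groups compared, a replicate block, eBayes with trend and robust settings, a linear model without moderated variances, quantile normalization again, centring on array medians, leaving out the 40% dimmest transcripts, array weights and leaving out each array.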

Additional observations from a re-analysis of the deposited data

How the results depend on the processing

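At an adjusted p under 0.05, limma called 0 listed sirtuin, Nampt and FoxO genes and 0 genes of each further list in every comparison under every alternative. In SAMP8 TFQA vs. SAMP8 water the count at the study's threshold, 1 listed gene, was 0 without moderated variances and 0 with array weights, and 0 to 1 when 1 array was left out (0 without SAMP8 TFQA replicate 1, SAMP8 water replicate 1 or SAMP8 water replicate 2). The log2 fold change of Sirt1 was 0.29 to 0.67 in these fits, and its adjusted p lay between 0.562 and 0.891 over all alternatives. In the other comparisons the count stayed at 0.

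Of 216 fits of single listed genes under the other alternatives, 214 kept their direction and side of the threshold. All 17 counted changes of sign came from leaving out 1 array. Signs were compared on rounded values. Foxo1 in SAMP8 water vs. SAMR1 water, at 0.00 in the main fit, had no sign to lose and could not enter this count. With 1 array left out, SAMP8 TFQA vs. SAMP8 water ranged from -0.21 to 0.05 for Sirt3, from -0.29 to 0.02 for Sirt5 and from -0.03 to 0.35 for Foxo1. SAMP8 water vs. SAMR1 water ranged from -0.03 to 0.12 for Sirt2, -0.19 to 0.12 for Sirt5, -0.04 to 0.20 for Nampt, -0.19 to 0.19 for Foxo1 and -0.10 to 0.03 for Foxo3. SAMP8 TFQA vs. SAMR1 water ranged from -0.32 to 0.02 for Sirt2, -0.03 to 0.16 for Sirt6, -0.22 to 0.03 for Nampt and -0.04 to 0.14 for Foxo3.

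For the further lists, counts at the study's threshold moved as follows, and the cause was not tested. In SAMP8 TFQA vs. SAMP8 water, the 3 NAD genes were 1 without moderated variances, 0 without the 40% dimmest transcripts and 2 to 3 with 1 array left out. The 3 FoxO genes were 6 with the replicate block, 6 with trend and robust settings, 6 after median centring and 2 to 5 with 1 array left out. With the replicate block Foxo4 was among them. The 2 partners were 6 without moderated variances, 1 after centring and 1 to 3 with 1 array left out. Ppargc1a, short of the threshold in the main fit, passed it with trend and robust settings, without moderated variances and after quantile normalization. It also passed without the 40% dimmest transcripts, with array weights and without SAMP8 TFQA replicate 1. Equal counts did not always hold the same genes. Without moderated variances Gadd45b was lost and Ccng2 was gained, and Gadd45a and Gadd45b were both lost without SAMP8 TFQA replicate 1. Gadd45a was lost as well without SAMP8 TFQA replicate 3, SAMP8 water replicate 2 or SAMP8 water replicate 3. Cdkn1a and Nrf1 kept the study's threshold under every alternative, and Afmid under all but the one without dim transcripts. Naprt, Tdo2 and Acss2 were each lost when single SAMP8 TFQA or SAMP8 water arrays were left out. In SAMP8 water vs. SAMR1 water, the 0 NAD genes were 2 with only the 2 groups compared, 1 without moderated variances, after centring, without dim transcripts and with array weights, and 0 to 2 with 1 array left out. The 2 FoxO genes were 1 after centring and 1 to 4 with 1 array left out, and the 1 partner was 2 without moderated variances and 0 to 2 with 1 array left out. Sgk1 kept the threshold under every alternative, whereas Cat and Polr1a were lost without single arrays. In SAMP8 TFQA vs. SAMR1 water, the 1 NAD gene was 2 with only the 2 groups and with the replicate block, 0 without moderated variances, without dim transcripts and with array weights, and 0 to 2 with 1 array left out. The 2 FoxO genes were 1 with only the 2 groups, 4 with the replicate block, 4 with trend and robust settings, 1 without moderated variances and 1 to 4 with 1 array left out. Each call named in this comparison was lost without at least 1 array. The 2 partners were 1 with the replicate block, 5 without moderated variances, 1 without dim transcripts and 1 to 3 with 1 array left out.

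Over the 9 pairs of the same number the correlation of deviations from the group means was 0 to 0.153, and above 0.1 in 1 pair, against -0.113 to 0.069 in the other pairs, so that the numbers were not taken to pair the samples, for which every pair would have to be above 0.1. As a hint of a link from the data, no pair of the same number was below 0, and replicate 2 had the highest oligodendrocyte score of its group in all 3 groups (0.14, 0.19 and 0.82) and replicate 3 the lowest (-0.42, -0.43 and -0.30). The striatal score was also highest in replicate 2 of each group, at 3.77 in SAMP8 TFQA, -0.17 in SAMP8 water and 0.91 in SAMR1 water. Replicate 1 of SAMP8 TFQA had no such link, with correlations of 0 and 0.001 with the other arrays of that number. With the replicate block, 1758 transcripts passed the study's threshold in SAMP8 TFQA vs. SAMP8 water against 1580 without it, and 0 passed at an adjusted p under 0.05 in limma with and without it. The block left Sirt1 at 0.53 (unadjusted p = 0.0345 in limma). The mean over several transcripts of a gene gave no value, since each measured gene had 1 transcript. With 3 arrays per group log2 fold changes had a standard error of 0.19 in the median of all transcripts, so that differences of the size seen in most of these genes could not be told from 0.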
